A study of Mus musculus with 18 samples.

Results

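Macrophages secrete growth factors that act on neighbouring vessels, fibroblasts and epithelia, and 10 such genes were followed here: Vegfa, Hbegf, Pdgfa, Pdgfb, Tgfb1, Igf1, Inhba, Gdf15, Edn1 and Areg. They were chosen by name among the 38887 genes that the deposited tables list per library, and each was found once under its own identifier. In build GRCm38 they lie apart from each other, Vegfa (ENSMUSG00000023951) at chr17:46016993-46032369, Pdgfb at chr15:79995874-80014977, Tgfb1 at chr7:25687002-25705077, Igf1 at chr10:87858265-87937042 and Gdf15 at chr8:70629393-70632456. Inhba (chr13:16011851-16031621) and Edn1 (chr13:42301476-42307990) share a chromosome, as do Pdgfa (chr5:138976014-138997370) and Areg (chr5:91139599-91148432). Of the 10 genes, 9 had enough reads to be tested in all comparisons, and Areg in none. The RNA came from bone-marrow derived macrophages (BMMs) of female C57BL/6J mice, differentiated with M-CSF and sequenced either untreated or after 4 h with 100 ng/ml lipopolysaccharide (LPS), the bacterial cell wall component sensed by the receptor TLR4. In each of 3 genotypes there were 3 untreated and 3 LPS libraries, 18 in all. All 3 genotypes carried Cre recombinase in the Lyz2 locus, the WT group included, so that the groups differed in their Gilz alleles and not in Cre. GILZ KO mice had loxP sites on either side of Gilz exon 6, which Cre removes in myeloid cells. GILZ TG mice carried a Tsc22d3/Gilz-1 cDNA in ROSA26 behind a stop cassette flanked by loxP sites, so that any Lyz2-expressing cell and its progeny can express it. The labels do not give the ages or say which mouse a library came from. By the study's methods and legends the mice were adults of varying age, with 3 mice per group.

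These factors fall into a few families that differ in how they are made and released. VEGF-A drives the growth of blood vessels through the receptors Flt1 and Kdr, and the PDGF chains A and B pair into dimers that stimulate mesenchymal cells. HB-EGF and amphiregulin are made as membrane-anchored precursors that the protease ADAM17 sheds and that bind the EGF receptor. TGF-β1 is stored in a latent complex until integrins or proteases free it, activin A is a dimer of the Inhba product, and GDF15 is a distant member of the same family that cells release under stress. IGF-1 is a hallmark product of tissue macrophages, and Edn1 encodes the precursor of the vasoconstrictor peptide endothelin-1, which endothelin-converting enzyme (Ece1) cuts to its active form.

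The targeted gene followed the labels. Tsc22d3, which encodes GILZ, was at 14.88 to 18.84 TPM (a level scaled by transcript length and by the library's total) in untreated WT, at 1.89 to 2.81 TPM in GILZ KO and at 151.97 to 159.83 TPM in GILZ TG. After LPS it was at 4.56 to 5.81, 2.5 to 3.28 and 127.22 to 140.56 TPM in the same order. The difference between GILZ KO and WT passed the test in untreated cells (log2 fold change -2.74 ± 0.142 SE, adjusted p = 2.16e-05, n = 3 per group) and not after LPS (-0.69 ± 0.138, adjusted p = 0.15), where DESeq2 gave -0.70 with an adjusted p of 0.00605. Reads on genes numbered 14583055 to 38557029 per library. The 7 macrophage markers (Adgre1, Csf1r, Cd68, Itgam, Fcgr1, Mertk and Cd14) were each above 1 TPM in every group, with a summed level of 3830 to 5020 TPM per library. T cell and mast cell markers were at or near 0, at most 0.31 TPM for the 4 T cell genes and 0.64 TPM for the 5 basophil and mast cell genes. GILZ TG replicates 1 and 2 stood apart in other markers. The 8 stromal fibroblast markers summed to 102 and 118 TPM in these replicates untreated and to 81.0 and 111 TPM after LPS, against 4.79 to 22.4 TPM in the other 14 libraries. The 7 markers of the neutrophil lineage reached 153 and 401 TPM in these replicates untreated and 184 and 428 TPM after LPS, against 17.2 to 73.2 TPM elsewhere. GILZ TG replicate 3 was also above WT and GILZ KO in these markers. It had 57.3 TPM untreated, where they had at most 49.7 TPM, and 73.2 TPM after LPS, where they had at most 65.1 TPM. For the differences named below that involve GILZ TG, values without these replicates are also given.

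Sequences upstream of the transcription start are shown for 4 members that moved with LPS, Edn1 and Inhba, which rose, and Vegfa and Gdf15, which fell in WT and GILZ TG. Each run is the 250 bases before a RefSeq start in build GRCm38.p6, read 5′ to 3′ in the direction of transcription. Edn1 lies at chr13:42301226-42301475 on the plus strand, Inhba at chr13:16011601-16011850 on the plus strand, Vegfa at chr17:46032378-46032627 on the minus strand and Gdf15 at chr8:70632457-70632706 on the minus strand. Capitals mark matches to any of 6 motifs, which were the TATA box TATAAA (on the coding strand), the AP-1 site TGANTCA, the cyclic AMP response element TGACGTCA, the C/EBP-ATF element TGATGCAA, the core ACGTG of the hypoxia response element and the NF-κB consensus (the last 5 on both strands).
Edn1: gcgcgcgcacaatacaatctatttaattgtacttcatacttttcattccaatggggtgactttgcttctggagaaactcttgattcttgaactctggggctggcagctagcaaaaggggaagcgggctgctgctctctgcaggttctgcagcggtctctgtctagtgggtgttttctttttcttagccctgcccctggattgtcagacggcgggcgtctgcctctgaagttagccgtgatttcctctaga
Inhba: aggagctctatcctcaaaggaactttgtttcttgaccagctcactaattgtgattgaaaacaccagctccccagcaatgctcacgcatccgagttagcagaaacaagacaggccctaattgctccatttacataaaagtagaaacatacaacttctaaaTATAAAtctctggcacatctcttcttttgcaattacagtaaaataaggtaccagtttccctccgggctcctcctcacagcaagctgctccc
Vegfa: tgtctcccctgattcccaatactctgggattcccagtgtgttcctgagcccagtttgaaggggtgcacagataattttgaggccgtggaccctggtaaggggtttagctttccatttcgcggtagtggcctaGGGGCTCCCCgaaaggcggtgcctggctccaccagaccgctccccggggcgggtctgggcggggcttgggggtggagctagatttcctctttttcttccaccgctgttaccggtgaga
Gdf15: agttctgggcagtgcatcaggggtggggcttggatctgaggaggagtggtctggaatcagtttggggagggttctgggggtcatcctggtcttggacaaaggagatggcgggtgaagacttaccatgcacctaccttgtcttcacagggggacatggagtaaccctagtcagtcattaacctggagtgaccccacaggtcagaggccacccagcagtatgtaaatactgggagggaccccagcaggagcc

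Few of the letters searched for were in these windows. Inhba had a TATAAA at bases 91 to 86 before its start, and Vegfa had an NF-κB match at bases 118 to 109. No motif was found in the Edn1 and Gdf15 windows shown, but a second Gdf15 start, not shown, had CACGTG at bases 83 to 78, which holds the hypoxia core on both strands, and a second Vegfa start had that core at bases 211 to 207. Over the 11 RefSeq starts taken for 8 members, an NF-κB match was present at 3, those of Pdgfa, Tgfb1 and Vegfa. Among 32817 promoters of the same length, 7.25% held the NF-κB consensus, 7.6% the TATA box, 6.75% the AP-1 site, 1.55% the cyclic AMP element, 0.792% the C/EBP-ATF element and 16.6% the hypoxia core. The Areg window carried both TATAAA (bases 31 to 26) and TGACGTCA (bases 61 to 54).

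Untreated WT cells expressed the 10 genes over a wide range of levels. Igf1 led with 719.8 ± 76.6 TPM (SD, n = 3), followed by Tgfb1 with 288.6 ± 1.14 TPM, Pdgfb with 81.02 ± 16.2 TPM and Pdgfa with 33.86 ± 4.46 TPM. Vegfa (21.29 ± 4.94 TPM) and Gdf15 (17.2 ± 1.84 TPM) came next and their libraries overlapped. Hbegf, Inhba and Edn1 were low, at 1.253, 0.443 and 0.147 TPM. The order was the same in untreated GILZ KO and GILZ TG. There the neighbours Pdgfa and Vegfa, and Inhba and Edn1, overlapped in GILZ KO, and Hbegf and Inhba overlapped in GILZ TG. After LPS Edn1 moved from the ninth place to the third in all 3 genotypes, behind Igf1 and Tgfb1, though in GILZ TG its libraries overlapped with those of Pdgfb. Below Pdgfb in WT, each neighbouring pair from Pdgfa through Vegfa, Hbegf and Inhba to Gdf15 overlapped. In GILZ KO the same held from Inhba through Gdf15 and Vegfa to Hbegf, and in GILZ TG for Hbegf and Vegfa.

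Areg, which encodes amphiregulin, was not detected beyond single reads. It had 0 reads in 13 libraries and 1 read in each of the other 5, and was between 0 and 0.07 TPM. A count of 0 allows up to 3 reads per library, which is 0.0778 to 0.206 CPM (counts scaled to the library's total) at these depths, and this floor covers counting error only.

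**Figure D1:**
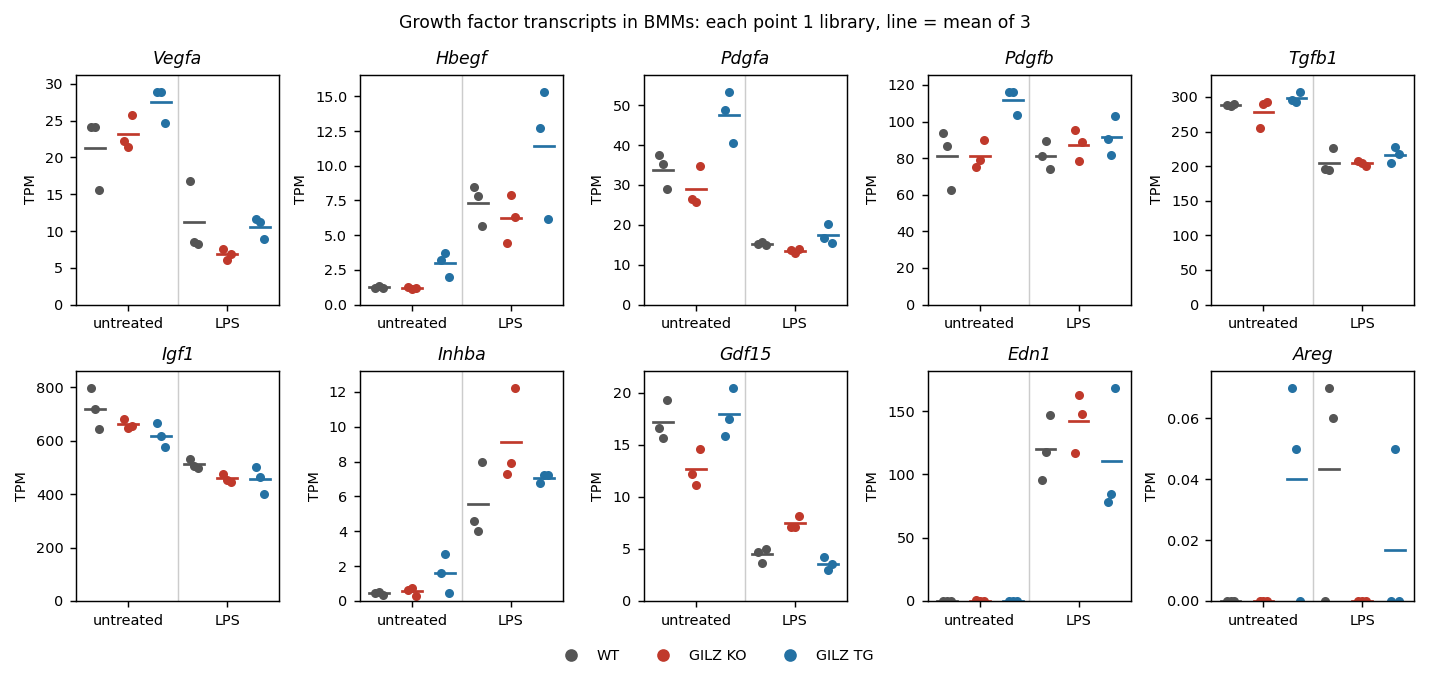
TPM of the 10 growth factor genes in each of the 18 libraries, with points for libraries, lines for the mean of 3, and a separate linear axis per gene. Edn1 is at or under 0.58 TPM in all untreated libraries and between 78.11 and 168.31 TPM after LPS, and Gdf15 after LPS is highest in the 3 GILZ KO libraries.

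The first question was how the LPS stimulus changed these factors in each genotype. In WT, 7 of the 9 genes tested changed. Edn1, Inhba, Hbegf and Pdgfb (4 genes) rose, where 33.5% of all 13169 genes did, and Gdf15, Pdgfa and Vegfa (3 genes) fell, where 35.1% did. GILZ KO had 5 genes up and 3 down (33.2% and 35.4% of all genes), and GILZ TG had 5 up and 3 down (33.6% and 35.1%). With so many genes called, the counts of members say little, and their sizes are described one by one. The median log2 fold change of the 9 members was 0.14 in WT, 0.19 in GILZ KO and 0.18 in GILZ TG, against -0.02 over all genes in each. Fold changes with LPS below come from TMM-scaled counts. The same contrast on log2(TPM + 1) is lower for a typical gene, with a median over all genes of -0.51 in WT, -0.52 in GILZ KO and -0.51 in GILZ TG, so a lower TPM level after LPS need not be a fall in the scaled counts.

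Edn1 had the largest increase of the 9. The untreated libraries held 0.21, 0.11 and 0.12 TPM in WT, 0.58, 0.04 and 0.08 TPM in GILZ KO and 0.33, 0.35 and 0.19 TPM in GILZ TG, which stand for 1 to 19 reads each. After LPS the values were 95.35, 117.71 and 147.27 TPM in WT, 117.19, 163.14 and 147.60 TPM in GILZ KO and 78.11, 84.75 and 168.31 TPM in GILZ TG. Groups were far apart in each genotype, and GILZ TG replicate 3 lay above the other libraries of its group. The log2 fold change was 10.26 ± 0.495 (SE, adjusted p = 5.88e-12) in WT, 9.76 ± 0.477 (7.82e-12) in GILZ KO and 9.18 ± 0.463 (1.09e-11) in GILZ TG. Because the untreated level rests on so few reads these sizes are uncertain, and without GILZ KO untreated replicate 1, which alone had 19 reads, the GILZ KO value became 11.82. Without GILZ TG replicates 1 and 2 the GILZ TG value was 10.43. The summed level of 6 endothelial markers, one source of endothelin-1 in tissues, was 6.05 to 8.40 TPM untreated and 9.68 to 14.2 TPM after LPS. One of the 6 is the receptor gene Kdr, at 1.29 to 2.68 TPM untreated and 4.86 to 9.67 TPM after LPS. The sum thus rose largely through Kdr. The part of cells with these markers in the Edn1 values was not tested.

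Inhba, the activin βA chain, rose next most. In WT it went from 0.46, 0.54 and 0.33 TPM to 4.61, 4.04 and 8.0 TPM, and in GILZ KO from 0.62, 0.73 and 0.30 TPM to 7.26, 7.94 and 12.22 TPM. GILZ TG started from 1.60, 2.71 and 0.44 TPM and reached 6.78, 7.21 and 7.24 TPM. The untreated values stand for 7 to 13 reads in WT, 5 to 13 reads in GILZ KO and 28, 64 and 9 reads in GILZ TG. The sizes of the Inhba changes are therefore uncertain. No untreated library reached the level of any LPS library, and the third untreated GILZ TG library was within the range of WT while the other two were not. The log2 fold changes were 4.32 ± 0.459 in WT (adjusted p = 2.26e-07), 4.68 ± 0.460 in GILZ KO (8.68e-08) and 2.80 ± 0.392 in GILZ TG (6.35e-06). Without GILZ TG replicates 1 and 2 the last value was 4.71 (adjusted p = 1.78e-05), and without untreated replicate 2 alone it was 3.45.

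Hbegf, the shed ligand of the EGF receptor, rose in every genotype. WT libraries were at 1.21, 1.34 and 1.21 TPM untreated and at 8.48, 7.81 and 5.63 TPM after LPS. GILZ KO libraries were at 1.26, 1.1 and 1.21 TPM and then at 4.45, 7.87 and 6.29 TPM. In GILZ TG they were at 3.22, 3.71 and 1.97 TPM and then at 12.70, 15.34 and 6.15 TPM, so that replicate 3 was the lowest in both states. The increase was 3.18 ± 0.314 on the log2 scale in WT (adjusted p = 8.76e-08), 3.00 ± 0.331 in GILZ KO (3.65e-07) and 2.57 ± 0.287 in GILZ TG (4.16e-07), where it was 2.31 without replicates 1 and 2.

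The PDGF chains differed in their response. Pdgfa, which pairs into the AA or AB dimers, fell from 37.44, 35.29 and 28.86 TPM to 15.15, 15.76 and 14.94 TPM in WT, from 26.53, 25.67 and 34.68 TPM to 13.76, 12.90 and 13.91 TPM in GILZ KO and from 48.66, 53.40 and 40.46 TPM to 16.64, 20.11 and 15.35 TPM in GILZ TG. In scaled counts the log2 fold changes were -0.53 ± 0.115 (adjusted p = 0.000536), -0.44 ± 0.121 (0.00412) and -0.78 ± 0.113 (9.33e-06), the last being -0.63 without replicates 1 and 2. Pdgfb kept its TPM level in WT, 62.75 to 93.60 untreated and 73.95 to 89.09 after LPS, and in GILZ KO, 75.14 to 89.72 and 78.22 to 95.16. In GILZ TG it was 103.30 to 116.35 TPM untreated and 81.59 to 103.27 TPM after LPS. In scaled counts Pdgfb rose by 0.64 ± 0.125 in WT (adjusted p = 0.000208), 0.74 ± 0.126 in GILZ KO (5.39e-05) and 0.35 ± 0.124 in GILZ TG (0.0191). On the TPM scale the GILZ TG difference was -0.29, of opposite sign, but still 0.22 above the median of all genes on that scale. The GILZ TG call was lost without untreated replicate 3 (0.29, adjusted p = 0.085) or LPS replicate 3 (0.23, adjusted p = 0.12), and the value was 0.67 without replicates 1 and 2. On the TPM scale Pdgfb was at 0.021 in WT and 0.103 in GILZ KO and was not called.

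Vegfa fell in each genotype. WT libraries went from 24.15, 24.13 and 15.59 TPM to 16.79, 8.49 and 8.29 TPM, GILZ KO libraries from 22.26, 21.47 and 25.77 TPM to 7.54, 6.07 and 6.93 TPM, and GILZ TG libraries from 28.96, 28.86 and 24.72 TPM to 11.59, 11.23 and 8.93 TPM. In WT the states overlapped, since LPS replicate 1 was above untreated replicate 3, and in the other genotypes they did not. The log2 fold changes were -0.44 ± 0.176 in WT (adjusted p = 0.0353), -1.002 ± 0.187 in GILZ KO (0.000143) and -0.82 ± 0.174 in GILZ TG (0.000478), or -0.92 without GILZ TG replicates 1 and 2. The WT value depended on single libraries. It was -0.76 without LPS replicate 1 (adjusted p = 0.000176), and it missed the threshold without untreated replicate 1 (-0.39, adjusted p = 0.0946), untreated replicate 2 (-0.40, 0.0923), LPS replicate 2 (-0.32, 0.155) or LPS replicate 3 (-0.28, 0.184).

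Tgfb1 and Igf1, the most abundant members, changed little. Tgfb1 was at 287.33 to 289.55 TPM in untreated WT and 195.05 to 225.45 TPM after LPS, at 254.79 to 292.01 and 200.32 to 207.64 TPM in GILZ KO, and at 292.40 to 307.68 and 204.52 to 227.37 TPM in GILZ TG. Its log2 fold change was 0.14 ± 0.0667 in WT (adjusted p = 0.0717), 0.19 ± 0.067 in GILZ KO (0.0208) and 0.18 ± 0.0667 in GILZ TG (0.0239) in scaled counts, whereas on log2(TPM + 1) it was -0.49, -0.45 and -0.46, and the latter values lie 0.015, 0.072 and 0.048 above the median of all genes. In scaled counts Tgfb1 lay 0.163, 0.209 and 0.201 above that median, so it was above the typical gene on both scales. The GILZ KO call was lost without untreated replicate 1 (0.099, adjusted p = 0.188), LPS replicate 2 (0.0604) or LPS replicate 3 (0.0505), and the GILZ TG call without untreated replicate 1 (0.0998), untreated replicate 2 (0.123), LPS replicate 2 (0.0506), LPS replicate 3 (0.0869) or replicates 1 and 2 together (0.207). Igf1 went from 644.53, 717.13 and 797.75 TPM to 496.95, 505.71 and 530.84 TPM in WT, from 647.16 to 680.46 TPM down to 444.96 to 476.68 TPM in GILZ KO and from 575.58 to 666.40 TPM down to 401.77 to 503.25 TPM in GILZ TG. In scaled counts the change was -0.12 ± 0.0755 in WT (adjusted p = 0.168), -0.24 ± 0.0758 in GILZ KO (0.00938) and -0.14 ± 0.0756 in GILZ TG (0.106). With the replicate number as a block, the GILZ TG change of -0.14 passed the test (adjusted p = 0.0193), and without GILZ TG replicates 1 and 2 it was -0.13 (0.438). In WT it was -0.24 without untreated replicate 3 (adjusted p = 0.0101). Relative to the median of all genes on the TPM scale Igf1 differed by 0.02 in WT, -0.011 in GILZ KO and 0.067 in GILZ TG, against -0.099, -0.219 and -0.121 in scaled counts. The sign relative to the median thus changed with the scale in WT and GILZ TG and not in GILZ KO, where the difference on the TPM scale was small.

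Gdf15 fell in WT and GILZ TG, and its change in GILZ KO did not pass the test in scaled counts. In WT it fell from 16.65, 15.69 and 19.25 TPM to 4.74, 3.69 and 4.99 TPM, and in GILZ TG from 15.84, 17.47 and 20.45 TPM to 4.23, 2.95 and 3.55 TPM. GILZ KO libraries were at 12.21, 11.09 and 14.58 TPM untreated and at 7.14, 7.11 and 8.14 TPM after LPS. The GILZ KO libraries were lower than all other untreated libraries and higher than all other LPS libraries. The log2 fold change was -1.30 ± 0.163 in WT (adjusted p = 1.61e-06), -1.68 ± 0.164 in GILZ TG (7.56e-08, and -1.86 without replicates 1 and 2) and -0.13 ± 0.163 in GILZ KO (0.509, 95% interval -0.471 to 0.219). On log2(TPM + 1) the GILZ KO value was -0.68 (adjusted p = 0.000229), a difference of -0.164 from the median of all genes on that scale.

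**Figure D2:**
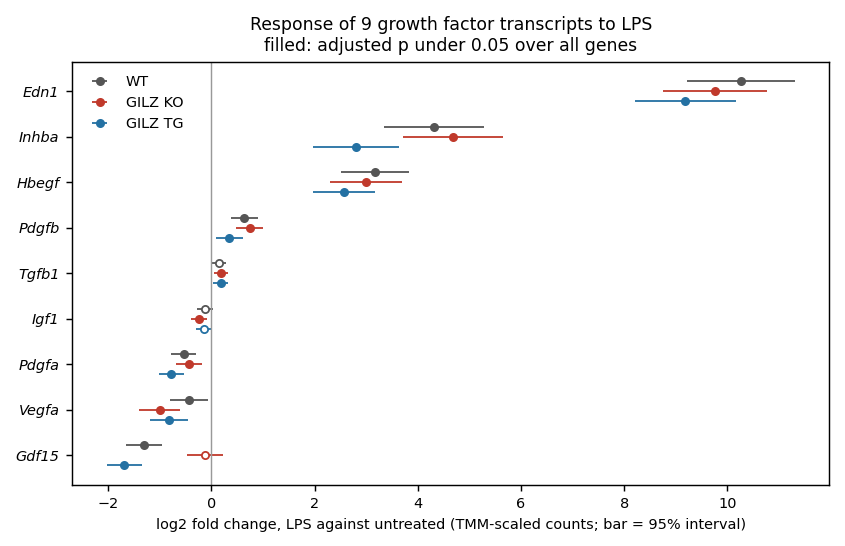
Log2 fold change of the 9 growth factor genes tested, LPS against untreated, in scaled counts, with 95% intervals and 1 point per genotype. Filled points passed the test. Edn1, Inhba and Hbegf lie far to the right in all 3 genotypes, and Gdf15 in GILZ KO (-0.13) is apart from WT (-1.30) and GILZ TG (-1.68).

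Whether the response to LPS differed between genotypes was tested as the difference of the fold changes. For Gdf15 the response of GILZ KO exceeded that of GILZ TG by 1.56 ± 0.231 on the log2 scale (95% interval 1.07 to 2.05, adjusted p = 0.0229). It was the only member called in this comparison, in which 0.121% of all genes were called. Leaving out GILZ KO untreated replicate 1 (1.54, adjusted p = 0.0565), GILZ KO LPS replicate 1 (1.62, 0.0684), GILZ KO LPS replicate 3 (1.48, 0.0831) or GILZ TG LPS replicate 2 (1.41, 0.0524) ended the call, as did leaving out GILZ TG replicates 1 and 2 together (1.74, 0.342). Against WT the difference of the Gdf15 response in GILZ KO was 1.18 ± 0.230 (95% interval 0.688 to 1.66) with an adjusted p of 0.221, and 0.0152% of all genes were called. DESeq2 gave 1.18 with an adjusted p of 0.00612. Between GILZ TG and WT no member was called (0.00759% of all genes), and the Gdf15 difference was -0.38 ± 0.230 (95% interval -0.869 to 0.105). Inhba in GILZ TG against WT was at -1.52 ± 0.613 (adjusted p = 1), a value that became 0.40 without GILZ TG replicates 1 and 2. In GILZ KO against GILZ TG it was 1.88 ± 0.614 (adjusted p = 0.245), and -0.034 without these replicates, while without untreated replicate 3 it was 2.31 (0.0395). For Vegfa in GILZ KO against WT the difference was -0.56 ± 0.257 (adjusted p = 0.764), and for Pdgfb in GILZ KO against GILZ TG it was 0.39 ± 0.176 (0.471, and 0.073 without GILZ TG replicates 1 and 2). The interval for Edn1 ran from -3.23 to 2.22 in GILZ KO against WT and from -3.69 to 1.53 in GILZ TG against WT, so a difference of several fold in its induction was not detectable here.

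The genotypes were next compared within untreated cells. Between GILZ KO and WT none of the 9 genes was called (edgeR, adjusted p under the threshold in 0.0951% of all genes), and DESeq2 called 0 as well. An unadjusted p under 0.05 was reached by 1 member, beside 1211 of all 12621 genes. That member was Gdf15, lower in GILZ KO by 0.49 ± 0.144 on the log2 scale (adjusted p = 0.381) without overlap between the 3 libraries of each group. In GILZ TG against WT 1 member of 9 was called, where 0.642% of all genes were. This was Hbegf, higher in GILZ TG by 1.23 ± 0.230 (adjusted p = 0.0482), with all 3 GILZ TG libraries (1.97 to 3.71 TPM) above the WT libraries (1.21 to 1.34 TPM). Pdgfa (0.48 ± 0.126, adjusted p = 0.138), Pdgfb (0.46 ± 0.113, 0.116) and Vegfa (0.36 ± 0.116, 0.201) had no overlap either and did not pass. Tgfb1 had no overlap as well, at a log2 fold change of only 0.035 (adjusted p = 0.873). How many of all genes had no overlap was not counted. DESeq2 called Pdgfa (adjusted p = 0.0256) and Pdgfb (0.00609). Inhba was at 1.83 ± 0.574 (adjusted p = 0.191), at 2.27 (0.0101) without GILZ TG replicate 3 and at 0.016 (0.996) without GILZ TG replicates 1 and 2, and Igf1 was at -0.21 ± 0.0813 (0.28). With replicate 3 as the only GILZ TG library, Pdgfa was at 0.25 (adjusted p = 0.647), Pdgfb at 0.36 (0.568), Vegfa at 0.34 (0.603) and Igf1 at -0.30 (0.517). The median log2 fold change of the 9 members over all libraries was 0.46, against -0.004 over all genes.

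Between untreated GILZ KO and GILZ TG cells, 3 of 9 members were lower in the former, where 4.94% of all genes were called. Hbegf differed by -1.34 ± 0.235 (adjusted p = 0.0176), Pdgfa by -0.77 ± 0.129 (0.0146) and Pdgfb by -0.49 ± 0.113 (0.0402). Libraries of the GILZ KO and GILZ TG groups did not overlap for any of the 3 genes. They did not overlap for Tgfb1 (adjusted p = 0.248) and Gdf15 either, which were not called. The share of all genes without overlap was not counted. Gdf15 was at -0.54 ± 0.145 (adjusted p = 0.06, or 0.0179 by DESeq2), Vegfa at -0.35 ± 0.117 (0.105) and Inhba at -1.55 ± 0.574 (0.134, or 0.0126 without GILZ TG replicate 3). This comparison shares the GILZ TG libraries with the one against WT.

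In TPM, Hbegf, Inhba, Pdgfa, Pdgfb and Vegfa were all higher in untreated GILZ TG replicates 1 and 2, with their high stromal and neutrophil lineage markers, than in replicate 3. The same held for Igf1 and Edn1, while Tgfb1 and Gdf15 were highest in replicate 3. In scaled counts Vegfa differed little, at 32.6 and 33.4 CPM in replicates 1 and 2 and 32.4 CPM in replicate 3. Hbegf was at 3.22 and 3.71 TPM in untreated GILZ TG replicates 1 and 2, where the stromal markers summed to 102 and 118 TPM, and at 1.97 TPM in replicate 3, where they summed to 10.2 TPM. The marker sum in untreated WT was 11.3 to 22.4 TPM and in untreated GILZ KO 4.79 to 11.8 TPM. Among the 8 markers, Col1a1 (44.2 and 51.3 TPM), Col1a2 (38.7 and 42.2 TPM) and Col3a1 (13.1 and 15.9 TPM) made up most of the sum in the high untreated libraries, while Thy1 and Lum were at or under 0.15 TPM. With replicate 3 as the only GILZ TG library, the Hbegf difference from WT was 0.66 (adjusted p = 0.517) and from GILZ KO -0.77 (0.194). Pdgfa then differed from GILZ KO by -0.54 (adjusted p = 0.173) and Pdgfb by -0.39 (0.258), with the lone library assumed to vary like the other groups. Inhba changed sign against GILZ KO, to 0.27, while Gdf15 was at -0.75 (adjusted p = 0.129) and Vegfa at -0.32 (0.361).

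These calls were also lost in fits without single libraries. Such fits have a library fewer, and their counts of all genes called moved widely too. They ran from 16 to 665 in GILZ TG against WT (81 in the main fit). In GILZ KO against GILZ TG they ran from 79 to 1306 (623). A lost call thus need not point to the library left out. Hbegf in GILZ TG against WT missed the threshold without WT replicate 1 (adjusted p = 0.145), 2 (0.199) or 3 (0.0805) and without GILZ TG replicate 1 (0.163) or 2 (0.198), and was at 1.46 without GILZ TG replicate 3 (0.00149). Against GILZ KO it missed without GILZ KO replicate 1 (0.0764), 2 (0.0743) or 3 (0.058) and without GILZ TG replicate 1 (0.0559) or 2 (0.0772). Pdgfa missed without GILZ KO replicate 1 (0.0801) or 2 (0.0646) and without GILZ TG replicate 2 (0.0691). Pdgfb was called when GILZ TG replicate 3 was left out (0.0209) and missed without any of the other 5 libraries (0.0649 to 0.16), and it also missed with limma on log2(TPM + 1) (-0.46, 0.108). Hbegf in GILZ TG against WT likewise missed with limma (0.79, 0.0871) and with only the 6 libraries compared (1.235, 0.178). Fewer cells of a kind and less RNA per cell cannot be told apart in such bulk samples, and the part of the marked cell types in these values was not tested.

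**Figure D3:**
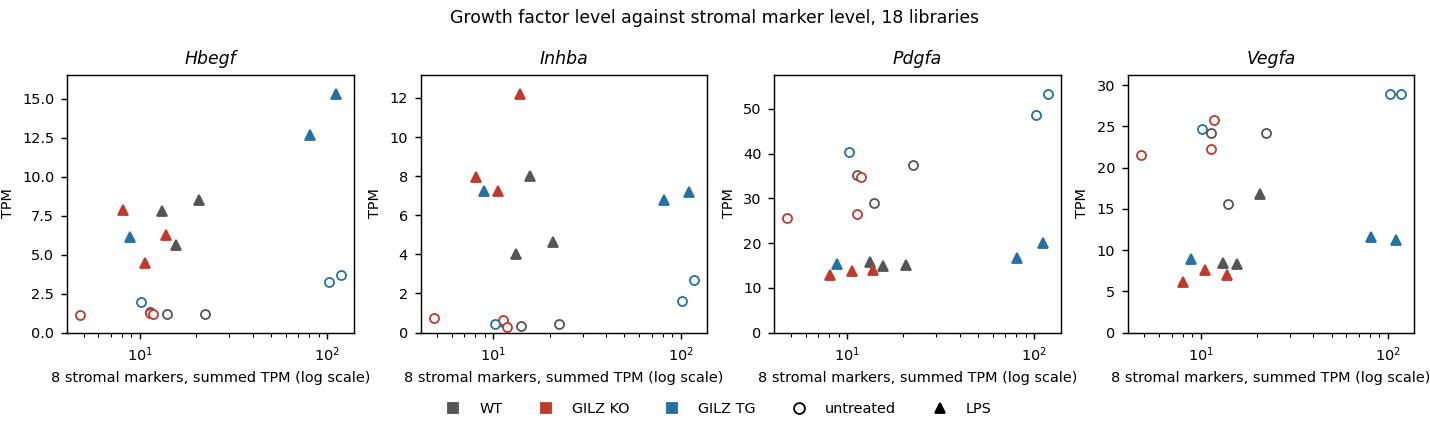
TPM of Hbegf, Inhba, Pdgfa and Vegfa against the summed TPM of 8 stromal fibroblast markers (log axis) in the 18 libraries, open circles untreated and filled triangles after LPS. The 4 GILZ TG libraries of replicates 1 and 2 lie at 81.0 to 118 summed TPM, all others at 22.4 or less.

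After LPS no member was called in GILZ KO against WT (0.0822% of all genes), and 0 by DESeq2. At an unadjusted p under 0.05 there were 4 members, beside 1171 of all 12164 genes. Gdf15 was higher in all 3 GILZ KO libraries than in the WT libraries, by 0.71 ± 0.177 on the log2 scale (adjusted p = 0.241). Inhba was at 0.67 ± 0.245 (adjusted p = 0.424), Vegfa at -0.52 ± 0.209 (0.459) and Igf1 at -0.21 ± 0.0695 (0.393). For Vegfa, Igf1 and Pdgfa (adjusted p = 0.644 for the last) all 3 GILZ KO libraries were below the WT libraries. The share of all genes without overlap was not counted here either. In GILZ TG against WT, with 0.46% of all genes called, no member passed, and DESeq2 called 0. Here 3 members had an unadjusted p under 0.05, beside 1852 of all 12164 genes. These members were Hbegf (0.65 ± 0.293, adjusted p = 0.326), Pdgfa (0.25 ± 0.0916, 0.227) and Igf1 (-0.23 ± 0.0693, 0.171). When GILZ TG replicates 1 and 2 were left out, Pdgfa was at 0.15 (0.861), Igf1 at -0.32 (0.391) and Hbegf at -0.22 (0.942), and Hbegf was at 0.92 (adjusted p = 0.0251) without GILZ TG replicate 3.

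GILZ KO against GILZ TG gave 1 call of 9 after LPS, where 2.6% of all genes were called. Gdf15 was higher in GILZ KO by 1.04 ± 0.178 (adjusted p = 0.0162), with 7.11 to 8.14 TPM in GILZ KO and 2.95 to 4.23 TPM in GILZ TG. Its value was 1.03 without GILZ TG replicates 1 and 2 (adjusted p = 0.144). It missed the threshold as well without GILZ KO replicate 1 (1.098, adjusted p = 0.078), GILZ KO replicate 3 (0.96, 0.0772) or GILZ TG replicate 2 (0.90, 0.0614). Pdgfa, at -0.40 ± 0.0941, had an adjusted p of 0.0501, and Hbegf and Vegfa were at -0.91 ± 0.306 (0.134) and -0.51 ± 0.207 (0.211). Pdgfa was called by DESeq2 (0.0243), and Hbegf by DESeq2 (0.0438) and without GILZ TG replicate 3 (-1.19, 0.00724), though without GILZ TG replicates 1 and 2 Hbegf was at -0.049, Pdgfa at -0.31 (0.409) and Vegfa at -0.37 (0.712). GILZ KO after LPS was the group with the lowest depth, 14583055 to 22640548 reads, where Gdf15 had 76 to 117 reads per library.

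**Figure D4:**
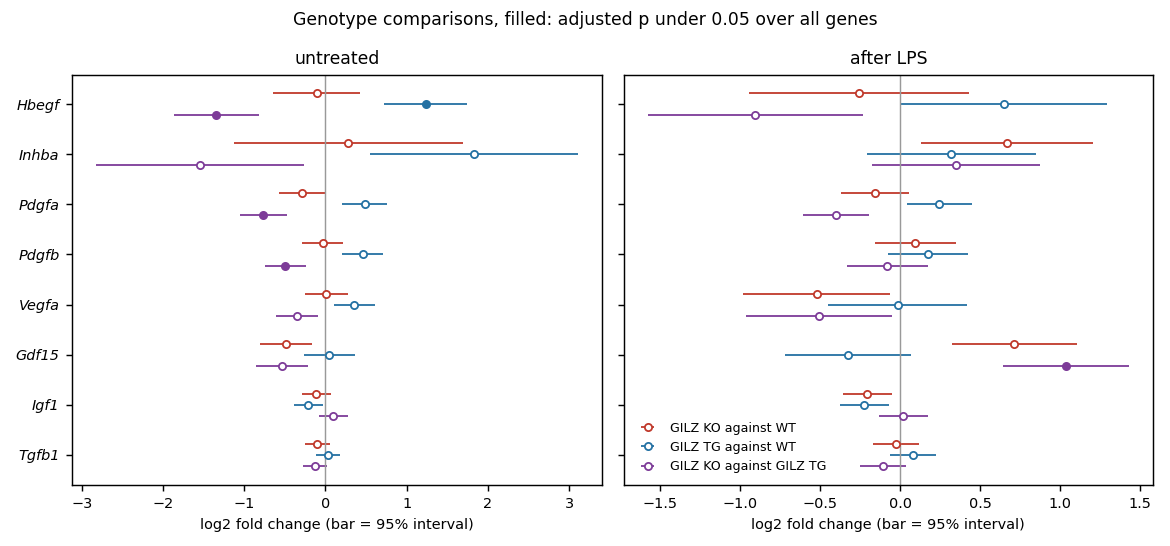
Log2 fold change between genotypes for 8 growth factor genes, untreated and after LPS, with 95% intervals. Edn1 and Areg are not drawn. Filled points, which passed the test, are Hbegf in GILZ TG against WT and Hbegf, Pdgfa and Pdgfb in GILZ KO against GILZ TG among untreated cells, and Gdf15 in GILZ KO against GILZ TG after LPS.

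Among 21 further ligands of the same families, 10 had enough reads to be tested with LPS, and 4 rose and 1 fell in each genotype, beside 33.2% to 33.6% and 35.1% to 35.4% of all genes. On the log2 scale the ligands had medians of 0.39, 0.29 and 0.61 in WT, GILZ KO and GILZ TG cells. Pgf, placental growth factor, rose in all 3 genotypes (2.40 in WT, 2.38 in GILZ KO, 2.09 in GILZ TG), as did Vegfc (0.83, 0.81 and 0.76) and Gdf11 (2.94, 3.20 and 1.96). Gdf11 stayed at or under 0.36 TPM throughout and its calls were lost without single libraries, namely WT untreated replicate 2 (adjusted p = 0.0507), WT LPS replicate 1 (0.0515), GILZ KO LPS replicate 2 (0.0528), GILZ TG untreated replicate 2 (0.0717) or GILZ TG LPS replicate 2 (0.0781), and without GILZ TG replicates 1 and 2 together (0.378). On log2(TPM + 1) Vegfc was not called in any genotype (0.18, 0.17 and 0.11). In the genotype comparisons Gdf3, a ligand of the TGF-β family, was the one ligand called. It was at 20.57 to 26.16 TPM in untreated WT, 5.16 to 7.54 TPM in GILZ KO and 3.85 to 9.32 TPM in GILZ TG. Gdf3 was thus lower than WT in GILZ KO (-1.95 ± 0.267, adjusted p = 0.0351) and in GILZ TG (-1.67 ± 0.261, 0.0251), and both comparisons use the same WT libraries. After LPS it was at 13.78 to 16.71 TPM in WT, 2.0 to 6.48 TPM in GILZ TG (-1.65 ± 0.297, adjusted p = 0.0423) and 2.82 to 4.76 TPM in GILZ KO (-1.995 ± 0.318, adjusted p = 0.0677). Without GILZ TG replicates 1 and 2 the GILZ TG differences were -2.61 untreated (adjusted p = 0.0022) and -2.85 after LPS (0.00202). The GILZ KO call was lost without any single one of the 6 libraries (adjusted p 0.0691 to 0.272). The untreated GILZ TG call was lost without WT replicate 1 or 2 or GILZ TG replicate 1 or 2 (0.0531 to 0.123), and the call after LPS without any WT replicate or GILZ TG replicate 2 (0.0823 to 0.15).

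Of 25 receptor genes 21 were tested with LPS, of which 10 rose and 5 fell in WT, 9 and 5 in GILZ KO and 10 and 6 in GILZ TG, where 33.2% to 33.6% of all genes rose and 35.1% to 35.4% fell. Of those called in all 3 genotypes, the 4 with the largest change in any genotype were increases, in receptors for VEGF and PDGF-B. Flt1 rose by 3.06, 2.87 and 3.70 on the log2 scale in WT, GILZ KO and GILZ TG, Kdr by 2.51, 1.90 and 2.32, and Flt4 by 3.19, 2.78 and 2.65, all from low levels, with Kdr at 4.86 to 9.67 TPM and Flt4 at 0.28 TPM or less after LPS. Without GILZ TG replicates 1 and 2 the GILZ TG values were 4.74, 2.53 and 3.31. Pdgfrb, a receptor for PDGF-B, rose by 2.61, 3.90 and 1.30. In GILZ TG the Pdgfrb level was 0.15 to 2.44 TPM untreated, its change was 4.39 without replicates 1 and 2 (adjusted p = 6.84e-06), and the call was lost without LPS replicate 1 (0.0511) or 2 (0.0882). Tgfbr1, a receptor for TGF-β named here after its values were seen, changed by -1.94, -2.19 and -1.86. The median of the tested receptors was 0.33, 0.25 and 0.46. The only receptor called between genotypes was Acvr1b, an activin receptor, which after LPS was at 13.07 to 15.32 TPM in GILZ KO and 7.15 to 8.84 TPM in GILZ TG (0.82 ± 0.132, adjusted p = 0.0139). This was lost without GILZ KO replicate 1 (0.078) or 3 (0.0659), GILZ TG replicate 1 (0.0589) or GILZ TG replicates 1 and 2 together (0.226).

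The 26 genes that release, store or inhibit these factors included 21 tested with LPS, of which 9 rose and 1 fell in WT, 10 and 2 in GILZ KO and 9 and 1 in GILZ TG (median 0.87, 0.73 and 0.66), beside the same shares of all genes. Itgb8, the integrin chain that frees latent TGF-β, rose from 0.03 to 0.11 TPM up to 8.08 to 19.77 TPM, by 8.38 in WT, 8.22 in GILZ KO and 8.03 in GILZ TG. Thbs1, which also binds latent TGF-β, rose by 3.18, 3.295 and 1.70, the last value being 2.79 without GILZ TG replicates 1 and 2. Rhbdf2, a partner of ADAM17 in shedding, rose by 2.90, 2.88 and 2.79, to 148.97 to 171.12 TPM. Dcn, which binds TGF-β and is also one of the 8 stromal markers, rose by 2.57, 3.07 and 1.27, and in GILZ TG the call was lost without untreated replicate 1 (adjusted p = 0.0747) or 3 (0.101) or LPS replicate 1 (0.0742) or 2 (0.272), and the value was 2.98 without replicates 1 and 2.

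Between untreated GILZ KO and GILZ TG 6 of the 21 genes in this list were called, 4 higher and 2 lower in GILZ KO (median -0.24), where 4.94% of all genes were called. Ece1, the enzyme that completes endothelin-1, was higher by 0.47 ± 0.0739 (adjusted p = 0.012), Adam17 by 0.28 ± 0.0515 (0.0204) and Adam10, a related protease, by 0.31 ± 0.059 (0.0225), while Igfbp4, which binds IGF-1, was lower by 0.43 ± 0.0785 (0.0204). Without GILZ TG replicates 1 and 2 they were at 0.49 (adjusted p = 0.0852), 0.19 (0.206), 0.24 (0.205) and -0.25 (0.195). Leaving out GILZ KO replicate 1 ended the call of each of these genes (0.064, 0.0868, 0.104 and 0.0965), as did leaving out GILZ TG replicate 2 (0.0555, 0.0905, 0.101 and 0.0848). Ece1 was also lost without GILZ KO replicate 3 (0.0522), Adam17 and Adam10 without any of the other libraries but GILZ TG replicate 3 (0.0658 to 0.0841), and Igfbp4 without GILZ KO replicate 2 (0.0776) or GILZ TG replicate 1 (0.0623). After LPS Ece1 was at 22.07 to 24.09 TPM in GILZ KO, 18.27 to 21.24 TPM in WT and 14.60 to 16.86 TPM in GILZ TG. GILZ KO thus exceeded GILZ TG in Ece1 by 0.45 ± 0.0617 (adjusted p = 0.00785), which was lost without GILZ KO replicate 1 (0.0595) or GILZ TG replicates 1 and 2 together (0.42, 0.141). Lrrc32, which tethers latent TGF-β to the cell surface, after LPS differed by -2.40 ± 0.364 between GILZ KO and GILZ TG (adjusted p = 0.0103) and was higher in GILZ TG than in WT by 2.13 ± 0.335 (0.0221). It was at 0.81 to 1.92 TPM in GILZ TG, and without replicates 1 and 2 these values were -1.72 (0.214) and 1.44 (0.442). Its call against WT was also lost without any WT replicate or GILZ TG replicate 1 or 2 (0.0679 to 0.134), and that against GILZ KO without GILZ KO replicate 1 (0.079).

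**Figure D5:**
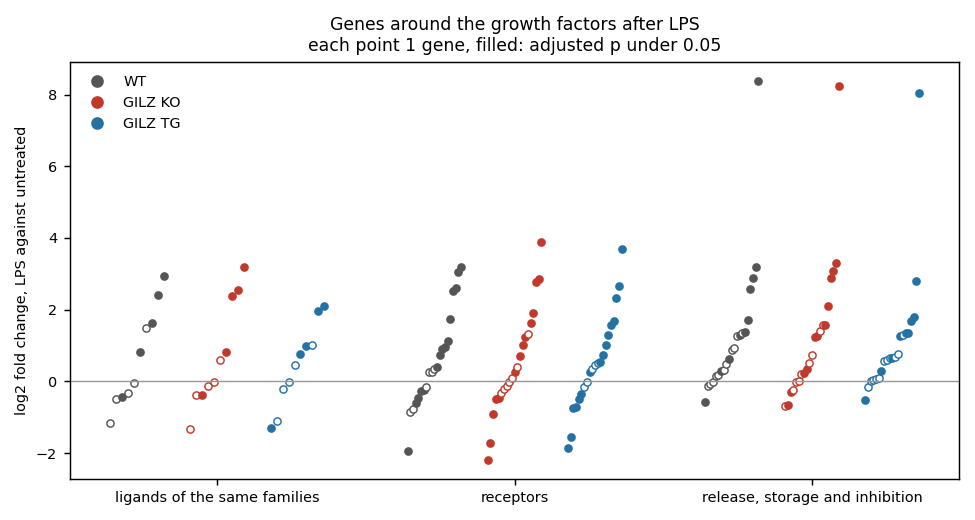
Log2 fold change with LPS of the tested genes in the 3 lists around the growth factors, 1 point per gene and genotype and filled where the test was passed. The highest points are Itgb8, at 8.03 to 8.38 in the 3 genotypes.

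The genes with the most similar profiles over the 18 libraries were sought among 10733 protein-coding genes with a mean of at least 1 TPM, by the root mean square difference of centred log2(TPM + 1). The libraries share their treatment, so these are descriptions of a common pattern. Nearest to Edn1 were Ccrl2 (0.226) and Lipg (0.259), where the profile of Edn1 itself varied by 3.33. Hbegf was closest to Rgs16 (0.266) and Crim1 (0.301), and Inhba to F10 (0.326) and Ntng2 (0.335). Gdf15 was closest to Pim3 (0.224) and Phf23 (0.263), Vegfa to Efr3b (0.192) and Sik1 (0.214), and Pdgfa to Camk2n2 (0.151) and Id1 (0.176). The profiles of Pdgfb, Tgfb1 and Igf1 varied little (0.219, 0.245 and 0.271). Their neighbours were Nuak2 (0.15) and Armc7 (0.17), Slc25a5 (0.056) and Cops6 (0.057), and Ezh1 (0.089) and Trp53 (0.094).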

How the data were processed

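RNA from the BMMs was selected for poly(A), made into directional libraries and read single-end. According to the submitters' processing notes and the methods, reads were checked with FastQC 0.11.2 and quantified with the grape-nf pipeline on GRCm38, and DESeq2 1.40.2 was used for testing. The authors deposited expected counts and TPM values per gene for each of the 18 libraries, not normalized between libraries apart from the TPM scaling. The deposited tables of comparisons (the authors' fold changes and p-values) were read only for gene symbols, and their values were not used.

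Expected counts were rounded and tested with edgeR 4.0.16 in R 4.3.3 (quasi-likelihood test, TMM scaling, genes with low counts removed by filterByExpr), and p-values were adjusted over all genes tested (Benjamini-Hochberg) and called when under 0.05. All adjusted p-values are from this two-sided test unless another tool is named. Genotypes were compared over the 9 libraries of a treatment, and LPS effects and their differences over all 18. Alternatives were DESeq2 1.42.0, its size factors in edgeR, no filter, limma 3.58.1 on log2(TPM + 1), fits of only the libraries compared, replicate blocks and leaving out each library. Leaving out GILZ TG replicates 1 and 2 together was chosen after seeing the data. The test was checked on simulated data for GILZ KO against WT in untreated cells (12621 genes), where it recovered 82% of 200 genes changed by 1 on the log2 scale with 6.29% false among 175 calls. DESeq2 had 14.9% false among 195 calls there and 13.5% false among 171 calls for the LPS response of GILZ KO against WT (13169 genes). For that response edgeR recovered 69.5%, with 1.42% false among 141 calls. The counts were drawn with the scaling and spread that edgeR estimated, so the tools were not on equal terms. No GILZ TG comparison was simulated. Deviations of same-numbered untreated and LPS libraries from their group means correlated in GILZ TG (0.266, 0.397 and 0.605). Elsewhere they did so in only some of the pairs. The GILZ TG numbers are read as pairs on these values alone. No pairing entered the main tests, and only the replicate blocks among the alternatives use the numbers. No libraries held identical values. The members, the lists and the rule for naming genes (in a list, at most 4 genes by adjusted p, or by the fold change with LPS among those called in 3 genotypes) were chosen with earlier results of these data known. Promoter sequences are from RefSeq and were taken for 8 members, with chromosome 18, which holds Hbegf, left out of the search.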

Additional observations from a re-analysis of the deposited data

Results flagged for a closer look

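The response of Gdf15 to LPS differed between GILZ KO and GILZ TG by 1.56 ± 0.231 on the log2 scale (edgeR, adjusted p = 0.0229), tested as the difference of the fold changes in the 2 genotypes. Gdf15 changed by -0.13 in GILZ KO and by -1.68 in GILZ TG. The adjusted p ran from 2.51e-06 to 0.342 over the alternatives, of which 14 of 19 kept the call.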

How the results depend on the processing

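The direction of the members' fold changes mostly held across alternatives: of 752 values, 659 kept their direction and their side of the threshold, 55 lost the call, 30 gained it and 8 reversed. On log2(TPM + 1), which moves all genes down together, 4 of the 8 reversed, and these 4 stayed above the median of all genes on both scales. Of 659 values for Tsc22d3 and the named list genes, which were chosen because the main test called them, 572 held, 84 lost the call, 2 gained it and 1 reversed. Edn1, Hbegf, Inhba and Pdgfa with LPS passed under every alternative run in all genotypes. So did Gdf15 in WT and GILZ TG, Vegfa in GILZ KO and GILZ TG, and Igf1 in GILZ KO. On log2(TPM + 1), however, that Igf1 value (-0.528) was close to the median of all genes (-0.517). Where no cause is given below, the cause was not tested.

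Without GILZ TG replicates 1 and 2, Inhba reversed in untreated GILZ KO against GILZ TG (0.27), in the response of GILZ TG against WT (0.40) and of GILZ KO against GILZ TG (-0.034), and Hbegf reversed after LPS in GILZ TG against WT (-0.22). On log2(TPM + 1), Tgfb1 with LPS was at -0.49, -0.45 and -0.46 in WT, GILZ KO and GILZ TG, Pdgfb in GILZ TG at -0.29 and Tsc22d3 in GILZ TG at -0.24, where the median of all genes is at -0.51.

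Counts of genes called in untreated GILZ KO against WT (12) were 79 by DESeq2, 21 without the filter and 20 with only the 6 libraries. In GILZ TG against WT (81) they were 315, 175 and 20, with 41 on TPM and 26 without GILZ TG replicates 1 and 2. In GILZ KO against GILZ TG (623) they were 1218 by DESeq2, 268 on TPM and 34 without these replicates. After LPS, GILZ KO against WT (10) gave 100 by DESeq2, 88 without the filter, 17 on TPM and 27 with 6 libraries. GILZ TG against WT (56) gave 274, 412, 30 and 15, and GILZ KO against GILZ TG (316) gave 715, 822 and 147 for the first 3 and 34 without GILZ TG replicates 1 and 2. For the response of GILZ KO against WT (2) the counts were 20 by DESeq2, 1 with its size factors, 1 on TPM and 8 with the block. For GILZ TG against WT (1) they were 2 by DESeq2, on TPM and with the block and 0 without GILZ TG replicates 1 and 2. For GILZ KO against GILZ TG (16) they were 150 by DESeq2, 63 without the filter, 144 with the block and 0 without these replicates.

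Members called in untreated GILZ TG against WT (1) were 3 by DESeq2, 2 without the filter, and 0 on TPM, with the replicate block, with 6 libraries and without GILZ TG replicates 1 and 2. Without these replicates they were also 0 in GILZ KO against GILZ TG untreated (3), after LPS (1) and for the response (1). GILZ KO against GILZ TG after LPS gave 3 by DESeq2, 2 with its size factors and 3 without the filter, and the response of GILZ KO against WT (0) gave 1 by DESeq2.

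Leaving out 1 library moved the counts of genes in untreated cells to 5 to 6 in GILZ KO against WT, 16 to 665 in GILZ TG against WT (members 0 to 4) and 79 to 1306 in GILZ KO against GILZ TG (members 0 to 4). After LPS they were 4 to 23, 15 to 1067 (members 0 to 1) and 24 to 1403 (members 0 to 4) in the same order. For LPS against untreated they were 8543 to 8819 in WT (members 6 to 8), 8536 to 8692 in GILZ KO (7 to 8) and 8560 to 8780 in GILZ TG (6 to 8). For the responses they were 1 to 4, 1 to 8 and 0 to 82 (members 0 to 2).

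With the replicate number as a block, Hbegf in untreated GILZ TG against WT was at 1.21 (adjusted p = 0.0651), Gdf15 in untreated GILZ KO against GILZ TG at -0.54 (0.0152) and, with LPS in WT, Tgfb1 at 0.14 (0.0193) and Igf1 at -0.12 (0.0476). In GILZ TG, where the numbers are read as pairs, the block changed the call of Igf1 with LPS and of no other member. Same-numbered libraries correlated above 0.1 in 4 of 9 pairs of untreated and LPS libraries and 2 of 18 pairs of genotypes, and 11 of 18 libraries correlated best with their own number. Depth limits Edn1 (1 to 19 reads) and Inhba (5 to 64 reads) in untreated cells, and Areg (0 or 1 read).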
